A study of Mus musculus with 5 samples.

Results

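A set of 10 genes known from lipid-laden phagocytes, with higher values after amyloid-β (Aβ) in primary mouse astrocyte cultures, was followed through all 3 groups of the study: Mmp12, Gpnmb, Atp6v0d2, Anpep, Cd36, Fabp4, Lgals3, Spp1, Plin2 and Lyz2. They are 10 of the 18783 genes in the authors' deposited table, found by symbol, and all 10 were matched. They were chosen because the values of that table were higher in Aβ than in Control, so the rise itself is given here as a description and is not tested again. The groups were Aβ+DFMO (1 library; 1 µM Aβ with 50 µM DFMO), Aβ (2 libraries; 1 µM Aβ) and Control (2 libraries; untreated). All were C57BL/6 astrocyte cultures from newborn pups, grown in medium with horse and fetal bovine serum and labelled day 12 in vitro; the agents of the first 2 groups were added on day 7 for 5 days. DFMO (difluoromethylornithine) blocks ornithine decarboxylase, the first enzyme of polyamine synthesis, and the first 2 groups compare Aβ with and without it. Nothing in the labels ties the libraries of a group to different cultures, so the spread behind the p-values may be technical.

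Values per gene were used as the authors' normalized means of each group, which carry no error of their own. The error of a log2 ratio is given as an implied standard error, the ratio divided by the normal deviate of its deposited two-sided p-value, with 95% intervals made from it. A gene is said to pass where its adjusted p is below 0.05. Where genes of a list are counted as having risen or fallen, they passed in that direction. The Aβ+DFMO library held 4825677 reads. The read totals of the Aβ and Control libraries, whose rows name the group but not the sample, were not used. Sequencing depth was not compared between the groups, and its part in the Aβ+DFMO ratios was not tested. In the Aβ+DFMO library 1 read was worth about 7.45 normalized units, from which the reads behind each gene were estimated. Means below that worth occur in the other groups, such as 1.75 in Aβ and 1.46 in Control for Atp6v1c2. Every statement on Aβ+DFMO rests on this single library, whose spread the authors' model took from the other groups.

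Macrophages and microglia that take in more lipid than they can burn or export keep it in droplets and become foamy. Scavenger receptors such as CD36 bring lipid in, fatty acid carriers move it through the cytosol, and perilipins coat the droplets. Lysosomes, acidified by a proton pump, break down what was swallowed. In the brain such cells are known from amyloid plaques, from demyelinated lesions and from ageing white matter. Of the 10 genes, Cd36, Fabp4 and Plin2 act on lipid; Gpnmb, Atp6v0d2 and Lyz2 belong to the lysosome or the antimicrobial granule contents of phagocytes; and Mmp12, Anpep, Spp1 and Lgals3 encode surface or secreted proteins. Astrocyte cultures hold some microglia, and in bulk RNA fewer cells of a type and less RNA per cell cannot be told apart.

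The start-site regions of members that moved together are shown with the motifs of transcription factors known from macrophages and lipid handling. RefSeq windows (GRCm38.p6), from 250 bases before an annotated start to 50 after it, were matched for 8 of the 10 genes in 10 windows. Both windows of Mmp12, the gene with the largest rise, and those of Gpnmb, Cd36 and Plin2 are printed 5′ to 3′ on the strand of the gene. They lie at chr9:7344147-7344446 and chr9:7347124-7347423 (both plus strand), chr6:49036268-49036567 (plus), chr5:17835847-17836146 (minus) and chr4:86670010-86670309 (minus). Capitals mark a match on either strand to CATGTG or CACGTG (the E-box cores read by MiT/TFE and related factors), TGANTCA (AP-1), AGGTCA (the core of nuclear receptor elements), GAGGAAGT (PU.1 and other ETS factors) or TATAAA.
Mmp12, upstream start: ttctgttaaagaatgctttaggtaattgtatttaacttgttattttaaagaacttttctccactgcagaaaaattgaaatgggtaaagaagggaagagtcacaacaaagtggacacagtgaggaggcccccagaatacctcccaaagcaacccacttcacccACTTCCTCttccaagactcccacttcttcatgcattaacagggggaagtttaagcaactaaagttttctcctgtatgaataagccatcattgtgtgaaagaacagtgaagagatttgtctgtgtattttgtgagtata
Mmp12, downstream start: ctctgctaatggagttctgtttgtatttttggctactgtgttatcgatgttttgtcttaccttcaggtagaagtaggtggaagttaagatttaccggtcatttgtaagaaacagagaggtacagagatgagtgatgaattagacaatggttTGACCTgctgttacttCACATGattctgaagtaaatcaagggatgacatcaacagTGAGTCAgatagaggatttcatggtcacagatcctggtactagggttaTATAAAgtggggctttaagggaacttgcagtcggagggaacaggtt
Gpnmb: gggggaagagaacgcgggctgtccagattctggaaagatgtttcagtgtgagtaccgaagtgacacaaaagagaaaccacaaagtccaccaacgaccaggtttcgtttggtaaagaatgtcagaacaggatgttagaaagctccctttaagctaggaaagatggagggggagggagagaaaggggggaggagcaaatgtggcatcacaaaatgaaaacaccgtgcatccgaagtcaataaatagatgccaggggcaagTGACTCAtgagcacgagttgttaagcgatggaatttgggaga
Cd36: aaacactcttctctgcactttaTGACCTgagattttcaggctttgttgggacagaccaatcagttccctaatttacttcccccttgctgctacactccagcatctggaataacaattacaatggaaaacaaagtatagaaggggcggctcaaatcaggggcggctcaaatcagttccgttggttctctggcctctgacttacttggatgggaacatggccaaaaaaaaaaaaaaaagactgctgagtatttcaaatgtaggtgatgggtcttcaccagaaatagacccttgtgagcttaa
Plin2: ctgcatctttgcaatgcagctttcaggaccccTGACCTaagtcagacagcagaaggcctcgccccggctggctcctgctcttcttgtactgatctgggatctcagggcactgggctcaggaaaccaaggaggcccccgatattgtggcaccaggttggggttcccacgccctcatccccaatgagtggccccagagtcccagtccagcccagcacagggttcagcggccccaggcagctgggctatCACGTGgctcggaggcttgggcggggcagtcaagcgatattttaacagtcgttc

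None of these motifs was found in most of the 8 genes. The nuclear receptor core was found in 3 of them (Mmp12, Cd36 and Plin2), and 16.3% of all 32851 windows hold it. The AP-1 motif was found in 2 (Mmp12 and Gpnmb), with 7.81% of all windows holding it. The PU.1 motif (3.20% of windows) and the TATA motif (13.6%) were each found in Mmp12 and Spp1. The TATA match begins at distance 5 after the downstream start of Mmp12 and 211 bases before the start in Spp1. The percentages are per window, whereas the 8 genes had 10 windows, with 2 each for Mmp12 and Spp1. The E-box CATGTG was found in Mmp12 (14.2% of windows), and its variant with CACGTG in Plin2 (7.15%), where it begins 4 bases before the start. No match overlapped another in these windows. In the downstream Mmp12 window the nuclear receptor, E-box and AP-1 matches begin 99, 83 and 44 bases before the start, and in Gpnmb the AP-1 match begins at distance 9 after it. A match is a description of letters and not a site shown to be bound.

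The 3 lipid genes all had their highest mean in Aβ and a mean below Control in Aβ+DFMO. For Fabp4 the Aβ+DFMO mean stood for 3 reads, and its interval against Control held 0. Cd36, which takes up oxidised lipoproteins and long-chain fatty acids, had a mean of 1073 in Aβ+DFMO, 2851 in Aβ and 1544 in Control. In the authors' deposited table it was 0.88 higher on the log2 scale in Aβ than in Control (implied standard error 0.102, adjusted p = 1.07e-14) and fell by 1.41 in Aβ+DFMO against Aβ (implied standard error 0.171, DESeq2 adjusted p = 1.74e-13). The Aβ+DFMO mean of Cd36 was the lowest of the 3. Cd36 is on the minus strand of chromosome 5, at 17781690 to 17888801 (GRCm38).

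Plin2, which coats lipid droplets, had a mean of 2333 in Aβ+DFMO, 4869 in Aβ and 3623 in Control. The authors' deposited table gave a log2 ratio of 0.43 for Aβ over Control (implied standard error 0.0956, adjusted p = 0.00418) and −1.06 for Aβ+DFMO over Aβ (implied standard error 0.141, DESeq2 adjusted p = 3.94e-11). For Plin2 the fall in Aβ+DFMO was larger than the rise in Aβ. Fabp4, a fatty acid carrier of adipocytes and macrophages, was the scarcest of the 10 genes, with a mean of 22.4 in Aβ+DFMO, 124 in Aβ and 35.03 in Control. Its Aβ+DFMO value stood for 3 reads, whose exact 95% Poisson interval of 0.619 to 8.77 reads covers counting error only. Taken over the Aβ mean, that interval spans log2 ratios of −4.75 to −0.93. The log2 ratio of −2.47 for Fabp4 in the authors' deposited table did not pass (unadjusted p = 0.00952, adjusted p = 0.0825 by DESeq2), although it was the lowest of the 10. Plin2 lies at 86648386 to 86670060 on chromosome 4 and Fabp4 at 10204088 to 10208576 on chromosome 3, both on the minus strand.

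**Figure D1:**
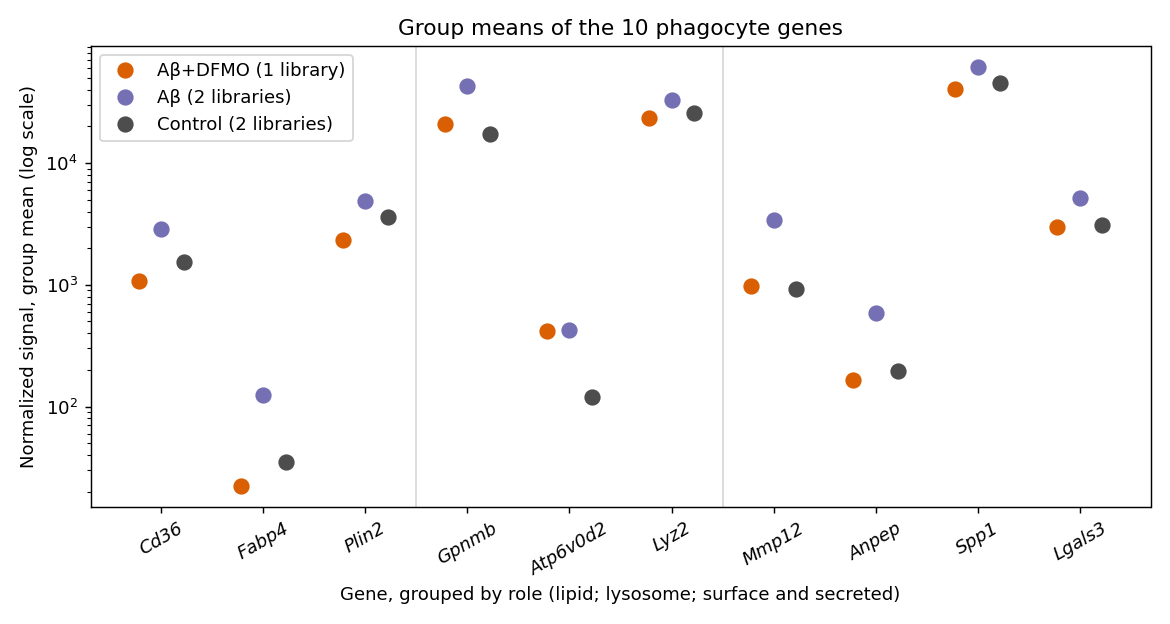
Normalized group means (log axis) of the 10 genes, grouped by role, with 1 point for each group: Aβ+DFMO (1 library), Aβ (2 libraries) and Control (2 libraries). Aβ is the highest of the 3 points for each gene, and for Atp6v0d2 alone the Aβ+DFMO point (417) stays beside that of Aβ (423).

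Of the lysosomal genes, Gpnmb and Lyz2 fell with DFMO and Atp6v0d2 did not pass. Gpnmb, a transmembrane glycoprotein that gathers on lysosomes of loaded phagocytes, had a mean of 20889 in Aβ+DFMO, 42816 in Aβ and 17328 in Control. In the authors' deposited table Gpnmb fell by 1.04 on the log2 scale in Aβ+DFMO against Aβ (implied standard error 0.115, DESeq2 adjusted p = 2.71e-16), after a difference of 1.31 between Aβ and Control. Its Aβ+DFMO level stayed above Control by 0.27 on the log2 scale. Gpnmb lies at 49036546 to 49070929 on the plus strand of chromosome 6.

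Atp6v0d2 encodes the d2 isoform of a subunit in the membrane sector of the vacuolar proton pump, an isoform of osteoclasts and macrophages. It had a mean of 417 in Aβ+DFMO, 423 in Aβ and 120 in Control. The rise with Aβ in the authors' deposited table was 1.81 on the log2 scale (implied standard error 0.205, adjusted p = 2.74e-15), close in size to that of Mmp12. Its log2 ratio of Aβ+DFMO over Aβ in the authors' deposited table was −0.02 (DESeq2 adjusted p = 0.988), with an interval of −0.61 to 0.57. A return to the Control level would need −1.81, which lies below that interval, whereas the fall of Lyz2 lies within it. The interval rests on a single Aβ+DFMO library and may not cover the spread between cultures. The Aβ+DFMO value stood for 56.0 reads (exact 95% Poisson interval 42.3 to 72.7). Atp6v0d2 lies at 19876841 to 19922605 on the minus strand of chromosome 4.

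Lyz2, the lysozyme of macrophages, had a mean of 23385 in Aβ+DFMO, 33225 in Aβ and 25844 in Control. It showed the smallest rise of the 10 genes, 0.36 on the log2 scale in the authors' deposited table (implied standard error 0.0734, adjusted p = 0.000565). In Aβ+DFMO against Aβ it fell by 0.51 in the authors' deposited table (implied standard error 0.0932, DESeq2 adjusted p = 7.9e-06). Lyz2 lies at 117277331 to 117282321 on the minus strand of chromosome 10, 5475 bases from its near-identical copy Lyz1. How reads shared by both copies were counted is not stated, so the level of Lyz2 is uncertain.

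The 4 surface and secreted genes all fell with DFMO, and for each the interval of Aβ+DFMO over Control, given further on, held 0. Mmp12, the macrophage elastase, had a mean of 976 in Aβ+DFMO, 3410 in Aβ and 921 in Control. That is 3.70-fold higher in Aβ than in Control, and the log2 ratio of Aβ+DFMO over Aβ in the authors' deposited table was −1.80 (implied standard error 0.177, DESeq2 adjusted p = 3.55e-21). Mmp12 lies at 7344381 to 7369499 on the plus strand of chromosome 9. Anpep, the membrane aminopeptidase CD13 of myeloid and stromal cells, had a mean of 164 in Aβ+DFMO, 584 in Aβ and 196 in Control. Anpep had a log2 ratio of 1.57 for Aβ over Control (implied standard error 0.187) in the authors' deposited table, and one of −1.83 for Aβ+DFMO over Aβ (implied standard error 0.375, DESeq2 adjusted p = 9.35e-05). The Anpep value in Aβ+DFMO stood for 22.0 reads (exact 95% Poisson interval 13.8 to 33.3), and its interval against Control ran from −0.99 to 0.48 on the log2 scale. Anpep lies at 79821803 to 79861059 on the minus strand of chromosome 7.

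Spp1, or osteopontin, a secreted ligand of integrins and CD44, had the highest level per transcript length of the 10 genes. Its mean was 40398 in Aβ+DFMO, 61668 in Aβ and 45593 in Control. In the authors' deposited table its log2 ratio was 0.44 for Aβ over Control (adjusted p = 1.57e-05) and −0.61 for Aβ+DFMO over Aβ (implied standard error 0.0966, DESeq2 adjusted p = 8.07e-08). Lgals3, or galectin-3, a lectin that binds damaged lysosomes and surface glycans, had a mean of 2973 in Aβ+DFMO, 5126 in Aβ and 3101 in Control. For Lgals3 the authors' deposited table gave 0.73 for Aβ over Control and −0.79 for Aβ+DFMO over Aβ (DESeq2 adjusted p = 7.57e-07 for the fall). Spp1 lies at 104435118 to 104441050 on chromosome 5 and Lgals3 at 47367751 to 47386160 on chromosome 14, both on the plus strand.

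In all, 8 of the 10 genes fell in Aβ+DFMO against Aβ by the authors' deposited DESeq2 values (adjusted p below 0.05), where 5.18% of all 18783 genes were lower and 4% higher by that rule. The 8 were Mmp12, Gpnmb, Anpep, Cd36, Lgals3, Spp1, Plin2 and Lyz2. Among the 11780 genes whose Aβ mean reached 200, as it did for 9 of the 10 genes, 8.17% were lower. All 10 had a log2 ratio below 0, with a median of −1.05, against −0.02 for the genes at that level. This comparison shares its Aβ libraries with the one that chose the genes, so the fall is not independent of the choice. By the same adjusted p, 0.112% of all genes were higher and 0.176% lower in Aβ than in Control, and all 10 genes are among those 21 by choice.

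The level in Aβ+DFMO against Control shares its Control libraries with the comparison that chose the genes, so it is a description as well. It is given as a log2 ratio of means, with intervals that use the standard error of Aβ+DFMO over Aβ and so take the Control mean to be as precise as the Aβ mean. Of the 10 genes, 3 lay above Control and 7 below. Cd36 (−0.53, interval −0.86 to −0.19) and Plin2 (−0.64, interval −0.91 to −0.36) had intervals wholly below 0. Atp6v0d2 (1.79, interval 1.21 to 2.38) and Gpnmb (0.27, interval 0.04 to 0.49) had intervals wholly above 0. For the other 6 the interval held 0: Mmp12 at 0.08, Lgals3 at −0.06, Lyz2 at −0.14, Spp1 at −0.17, Anpep at −0.26 and Fabp4 at −0.65. The median of the 10 was −0.16, and that of the 11780 genes at the higher level was −0.01. Measured as the share of the log2 rise that was left, 98.9% remained for Atp6v0d2, 20.7% for Gpnmb and 4.43% for Mmp12, and the means of the other 7 genes lay below Control. Among the 7, the intervals of Lgals3, Anpep and Fabp4 reached 0.20, 0.48 and 1.22 above Control. Those of Spp1 and Lyz2 reached 0.015 and 0.038 above it. A remaining rise is within the error of each of these genes.

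**Figure D2:**
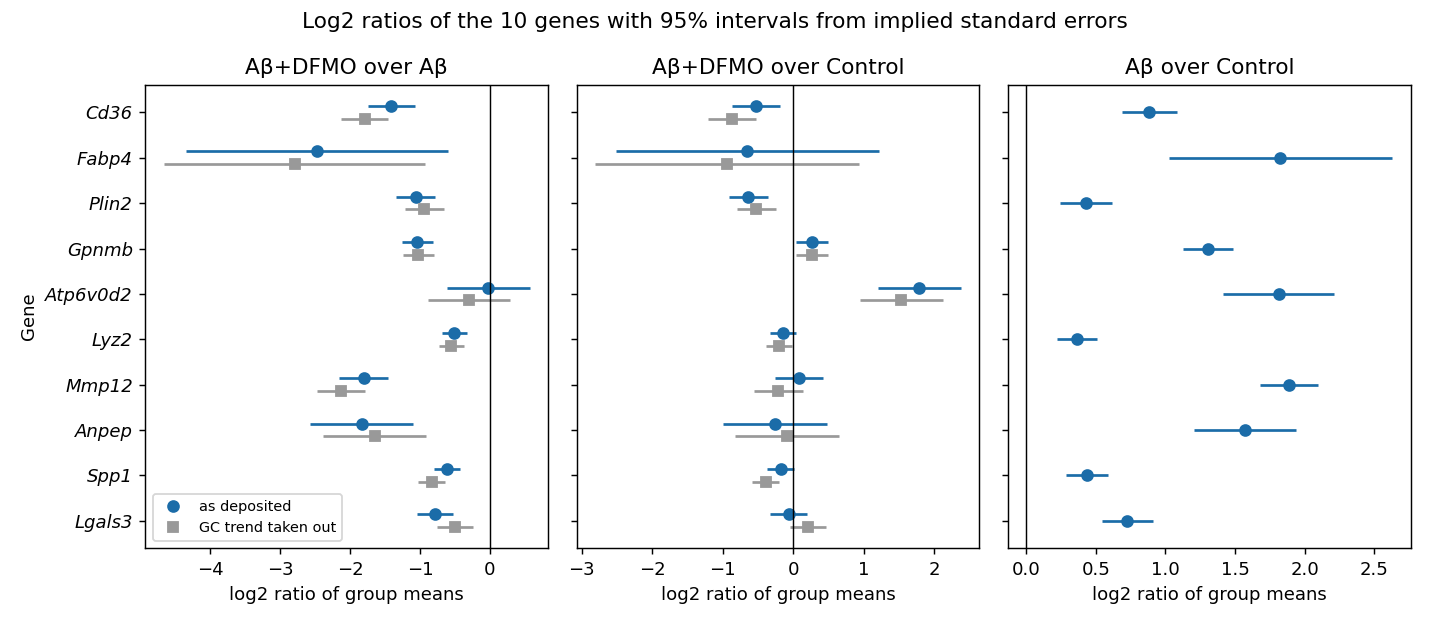
Log2 ratios of group means (points) with 95% intervals from implied standard errors (lines) for Aβ+DFMO over Aβ, Aβ+DFMO over Control and Aβ over Control. Blue circles are as deposited and grey squares have the trend with transcript GC content taken out; in the middle panel Atp6v0d2 (1.79) stands far to the right of 0, while Cd36 (−0.53) and Plin2 (−0.64) lie to its left.

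The ratio of Aβ+DFMO over Aβ was lower the higher a transcript's GC content, over 11744 genes (Spearman's rho −0.71, across genes, which are not independent replicates). GC content, from GENCODE vM21 transcripts, was lowest in Cd36 (38.4%) and highest in Lgals3 (55.0%), with a median of 45.8% against 49.7% for the 11744. Taking out the trend lowered the log2 ratio of the 6 members of lowest GC content and raised that of the others. Cd36 then stood at −1.79 and Mmp12 at −2.13, both lower than before, whereas Lgals3 stood at −0.50 (adjusted p = 0.0156 from the implied errors) and Anpep at −1.64 (adjusted p = 0.00183 from the implied errors). The same 8 genes passed, where 0.731% of the 18592 genes with a GC value were then lower and 0.844% higher. Atp6v0d2 stood at −0.30 (adjusted p = 0.932 from the implied errors) and Fabp4 at −2.79 (adjusted p = 0.136 from the implied errors). Against Control with the trend taken out, Cd36, Plin2, Spp1 and Lyz2 had intervals below 0, and Atp6v0d2 and Gpnmb kept theirs above. The side of Control turned for 2 genes: Mmp12 then lay at −0.21 (interval −0.56 to 0.14), against 0.08 as deposited, and Lgals3 at 0.21 (interval −0.05 to 0.47), against −0.06 as deposited. Why this library follows GC content was not tested.

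**Figure D3:**
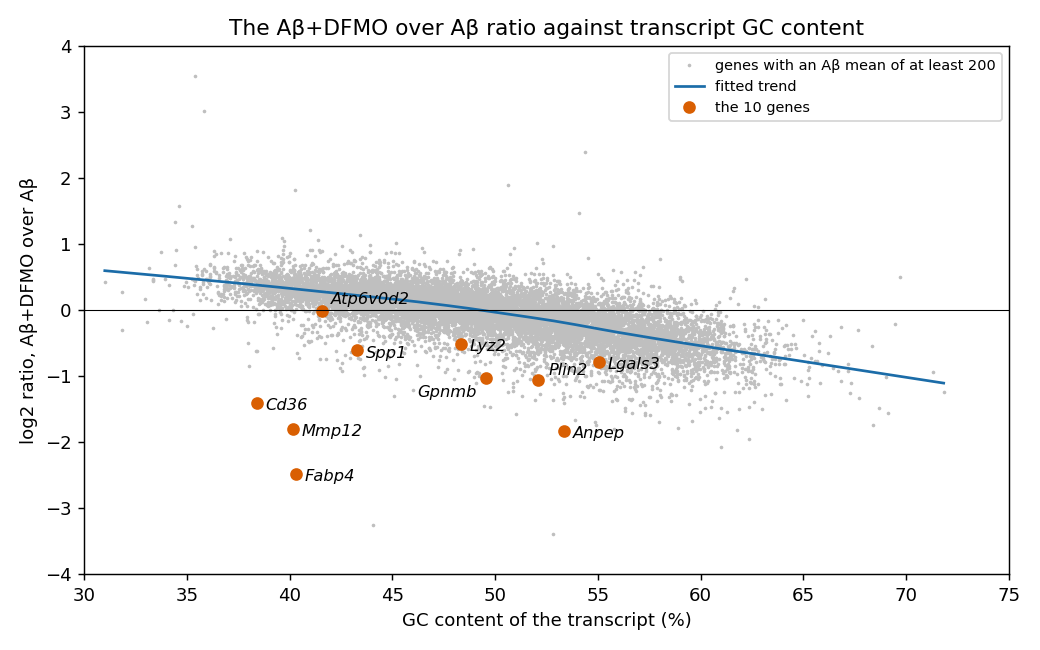
Log2 ratio of Aβ+DFMO over Aβ against the GC content of the transcript (%) for 11744 genes whose Aβ mean reached 200 (grey), with the fitted trend (blue) and the 10 genes (orange; Fabp4 has a lower mean). Cd36, Mmp12 and Fabp4, between 38.4% and 40.3% GC, lie far below the trend, and Atp6v0d2 is the member nearest to it.

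Levels differed widely among the 10 genes. Divided by the length of the longest coding transcript, the Aβ signal per kilobase was 40921 for Spp1, 25247 for Lyz2, 11569 for Gpnmb, 3613 for Lgals3 and 2579 for Plin2. It was 945 for Mmp12, 839 for Cd36, 167 for Atp6v0d2, 154 for Anpep and 139 for Fabp4. Spp1, Lyz2 and Gpnmb lay above 99% of all genes on that scale in Aβ, whereas Atp6v0d2, Anpep and Fabp4 lay near the middle. The log2 rises of Mmp12, Fabp4, Atp6v0d2 and Anpep were between 1.57 and 1.89, that of the abundant Gpnmb was 1.31, and those of Spp1, Plin2 and Lyz2 were between 0.36 and 0.44. These rises chose the genes, so no relation of rise to level is drawn from them.

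None of the 5 close relatives examined passed with Aβ. Atp6v0d1, the widespread isoform of the same pump subunit, had a log2 ratio of 0.11 for Aβ over Control and −0.20 for Aβ+DFMO over Aβ in the authors' deposited table, and passed in neither. Of the summed signal per kilobase of both isoforms, Atp6v0d2 made up 7.33% in Aβ+DFMO, 6.55% in Aβ and 2.10% in Control. Fabp5, the epidermal fatty acid carrier also found in macrophages, stood at 0.34 (adjusted p = 0.235) and −0.40 (adjusted p = 0.0733) in the authors' deposited DESeq2 table. Plin3, another droplet coat protein, stood at 0.01 for Aβ over Control and fell by 0.50 with DFMO in that same table (DESeq2 adjusted p = 0.0416), but with the GC trend taken out it did not pass (−0.42, adjusted p = 0.312 from the implied errors). Scarb1, a lipoprotein receptor of the CD36 family, had −0.05 and −0.62, and Lgals1, another galectin, 0.09 and 0.06 in the authors' deposited table, and neither passed.

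No other gene of the lipid, proton pump or lysosomal lists passed as higher in Aβ, and some fell with DFMO. Log2 ratios of Aβ over Control were above 0 in 19 of 30 lipid, 18 of 20 proton pump and 20 of 28 lysosomal genes. With 2 libraries in each of these groups, small rises may not pass. Of 30 further genes of lipid uptake, storage and efflux, none passed in Aβ against Control, with a median log2 ratio of 0.03. The lowest unadjusted p-value was that of Fabp5. In Aβ+DFMO 6 of the 30 fell and none rose, with a median of −0.29, and 4 fell with the GC trend taken out (Msr1, Lpl, Apoe and Fabp5). By p-value the first 4 of the 6 were Apoe (−0.91), the main lipoprotein of glia, Mgll (−0.94), which cleaves monoglycerides, Msr1 (−0.62), another scavenger receptor, and Lpl (−0.33), which releases fatty acids from lipoproteins, in the authors' deposited table. The lowest log2 ratio of the 6 was that of Dgat2, which makes triglycerides (−1.52, DESeq2 adjusted p = 0.0499 in the authors' deposited table), and it did not pass with the GC trend taken out. Of 20 further proton pump genes none passed in Aβ (median 0.08) and 1 fell in Aβ+DFMO (Atp6v0c, −0.56 in the authors' deposited table; median of the 20, −0.10). With the trend taken out Atp6v0c did not pass (−0.22, adjusted p = 0.580 from the implied errors).

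Of 28 further lysosomal genes, 1 fell in Aβ and none rose, with a median of 0.08. It was Ctsc (−0.39 in the authors' deposited table), a cathepsin that activates serine proteases, and it did not pass with the GC trend taken out. In Aβ+DFMO 8 of the 28 fell and none rose (median −0.20), and 4 with the GC trend taken out. Cd68, a lysosomal protein of macrophages (−1.01 in the authors' deposited table), and the cathepsins Ctsd (−0.71) and Ctsb (−0.46) passed both ways. Of 18 nuclear receptors and lysosomal or myeloid transcription factors, none passed in Aβ (median −0.06). Pparg, which drives Cd36 and Fabp4 in macrophages, had a mean of 52.2 in Aβ+DFMO, 57.1 in Aβ and 52.9 in Control. Mitf, a regulator of Gpnmb, had 492, 503 and 547 in the same order. The Pparg value in Aβ+DFMO stood for 7.0 reads. Its implied standard errors were 0.44 for Aβ over Control and 0.75 for Aβ+DFMO over Aβ, so a change may be missed. In Aβ+DFMO 5 of these 18 fell (median −0.44), led by Spi1, which encodes PU.1 (−1.78 in the authors' deposited table, on 12.0 reads), and none fell with the GC trend taken out.

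The list of disease-associated microglia genes, a state described around plaques in mouse models, holds 5 of the 10 members, and 29 further genes of it were measured. None of the 29 passed in Aβ, with a median of 0.10. Those with the smallest p-values were Ctsl (0.30), Cd68 (0.33), Clec7a (0.40) and Ch25h (−1.44) in the authors' deposited table. In Aβ+DFMO 7 of the 29 fell and 1 rose (B2m, the light chain of MHC class I; median −0.22), and 9 fell and 1 rose (Csf1, a growth factor of macrophages) with the GC trend taken out. Trem2, the lipid receptor of that state, fell by 0.80 in the authors' deposited table but did not pass with the trend taken out (−0.38, adjusted p = 0.612 from the implied errors).

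No listed partner of the secreted members passed with Aβ. Of 15 receptors and ligands linked to osteopontin and galectin-3, none passed in Aβ (median 0.02), and in Aβ+DFMO only Itgb1, an integrin chain, rose (0.54 in the authors' deposited table; median 0.06). Cd44, a further osteopontin receptor, had −0.20 for Aβ over Control and 0.22 for Aβ+DFMO over Aβ in the authors' deposited table. Of 15 further matrix proteases, inhibitors and substrates none passed in Aβ (median −0.04), and in Aβ+DFMO Timp3 rose while Mmp15, Mmp17 and Timp4 fell (median −0.24); Mmp15 alone passed with the GC trend taken out. Mmp13, the collagenase beside Mmp12, had a log2 ratio of 1.40 in Aβ at low means of 60.7 in Aβ and 23.0 in Control (adjusted p = 0.901 in the authors' deposited DESeq2 table). Of 10 further surface peptidases none passed in Aβ (median 0.01), and Mme (neprilysin, 0.69 in the authors' deposited table) rose in Aβ+DFMO (median 0.08) but did not pass with the GC trend taken out (0.29, adjusted p = 0.328 from the implied errors).

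Markers of cell types moved in the same libraries. The cultures expressed the astrocyte markers strongly, with summed means over 16 genes of 204223 in Aβ+DFMO, 259840 in Aβ and 260674 in Control. Of these 16, none passed in Aβ and 7 fell in Aβ+DFMO (5 with the GC trend taken out). Of 23 pan-myeloid markers, 5 fell (Laptm5, Ncf1 and the complement genes C1qa, C1qb and C1qc) and none rose in Aβ, and 11 fell and none rose in Aβ+DFMO (5 with the trend taken out). Their summed means were 25358 in Aβ+DFMO, 36930 in Aβ and 43612 in Control, and none of the 23 was under a mean of 100 in all 3 groups. Of 14 resting microglia markers 7 fell and none rose in Aβ, and 1 fell in Aβ+DFMO on 3 reads (none with the trend taken out), with summed means of 15916, 17746 and 25288 in the same order. The 10 genes were higher in Aβ by choice, and the log2 ratio of the pan-myeloid sum for Aβ over Control was −0.24. For Aβ+DFMO over Aβ that ratio was −0.54. The ratios of Spp1 (−0.61) and Lyz2 (−0.51) lay close to it, and that of Atp6v0d2 (−0.02) lay above it. The median of the 10 genes was −1.05. This comparison shares the Aβ libraries that chose the genes, so no conclusion is drawn from the difference. The part of altered cell numbers in these results was not tested.

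Other cell types gave the following counts. Of 6 measured markers of macrophages outside the brain parenchyma none passed in either comparison, with sums of 484 in Aβ+DFMO, 725 in Aβ and 964 in Control. Of 15 oligodendrocyte lineage markers none passed in Aβ and 11 fell in Aβ+DFMO (5 with the GC trend taken out), with sums of 27172, 49933 and 50367 in the same order. Their median log2 ratio of Aβ+DFMO over Aβ was −0.995, near the −1.05 of the 10 genes, and −0.81 with the GC trend taken out. Of 12 fibroblast and mural markers none passed in Aβ and 3 rose in Aβ+DFMO (Postn, Myh11 and Acta2). With the GC trend taken out Postn did not pass (0.25, adjusted p = 0.346 from the implied errors) and Col1a2 did (0.45, adjusted p = 0.0168 from the implied errors). Of 9 neuron markers none passed in Aβ, and Stmn2 rose while Tubb3 and Gap43 fell in Aβ+DFMO. Tubb3 did not pass with the GC trend taken out (−0.34, adjusted p = 0.647 from the implied errors). None of 8 endothelial markers passed in either comparison. Of 7 adipocyte markers, listed because Fabp4 and Plin2 are abundant in fat, 1 was matched (Lipe, −0.03 and −0.32 in the authors' deposited table), and it passed in neither.

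**Figure D4:**
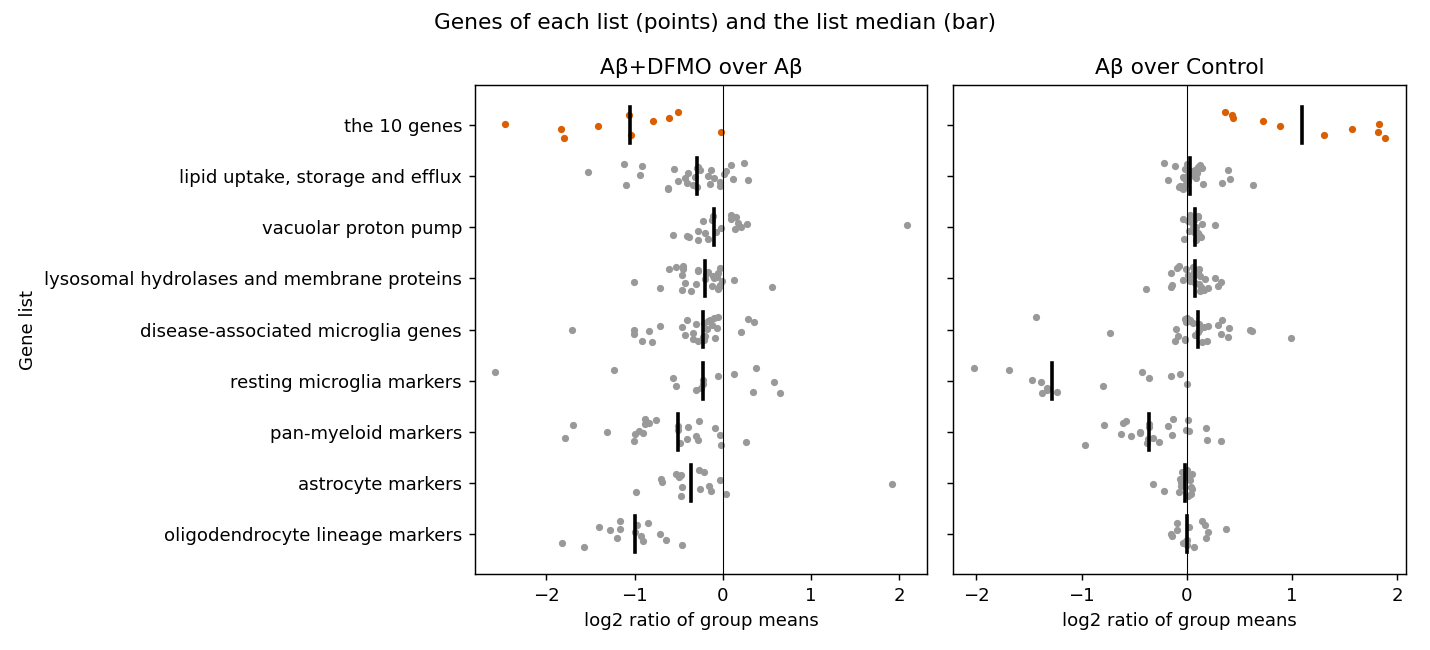
Log2 ratios of single genes (points) and list medians (bars) for Aβ+DFMO over Aβ and Aβ over Control, with the 10 genes in orange and taken out of the other lists. In Aβ over Control the 10 genes (median 1.09) lie to the right by choice, and resting microglia markers (median −1.28) lie to the left. In Aβ+DFMO over Aβ the medians are −1.05 for the 10 genes, −0.995 for oligodendrocyte lineage markers and −0.51 for pan-myeloid markers.

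Around the threshold that chose the genes, Plin2 and Fabp4 were the members nearest to it, with adjusted p-values of 0.00418 and 0.00421 in the authors' deposited DESeq2 table. The genes just outside were Plau, the urokinase protease (log2 ratio 0.47, adjusted p = 0.0724), Gpr137b, a lysosomal membrane protein (0.35, adjusted p = 0.0735), Ctsl (0.30, adjusted p = 0.0910), Hmox1, which degrades haem (0.36, adjusted p = 0.135), and Cd68 (0.33, adjusted p = 0.145), in that table by DESeq2. In Aβ+DFMO against Aβ these 5 had −0.45, −0.41, −0.12, −0.65 and −1.01 in the authors' deposited table, and Gpr137b, Hmox1 and Cd68 passed.

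The genes whose pattern over the 3 group means was nearest to the median of the 10 (1.09 for Aβ over Control, −1.05 for Aβ+DFMO over Aβ) were found by Euclidean distance on both log2 ratios, among named genes with an Aβ mean of 200 or more. They were Hspa1b, a heat shock protein (distance 0.153), Npy, a neuropeptide (0.161), Hist1h2ap, a histone (0.273), Lrp1, a lipoprotein receptor (0.472), and Ccl3, a chemokine (0.520). None of the 5 passed in Aβ+DFMO against Aβ in the authors' deposited table, and Hist1h2ap, Lrp1 and Ccl3 did not pass in Aβ either. Hspa1b had a mean of 262 in Aβ+DFMO, 506 in Aβ and 257 in Control.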

How the data were processed

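Polyadenylated RNA was sequenced as read pairs, per the labels' protocols. Per the submitters' processing notes STAR 2.7.3a, Partek, DESeq2 and FastQC were used and both mm10 and GRCm39 are named; the way reads were counted, the annotation and any filter are not given. The deposited table holds a normalized signal as a least-squares mean per group, with ratio, log2 ratio, p-value and adjusted p-value for each comparison, per the file headers. The deposited log2 ratios and adjusted p-values were checked against the means and against Benjamini-Hochberg over 18783 genes. The read total of the Aβ+DFMO library is a deposited signal and its exonic share (84.4%) a percent, per the file headers; the rows of the other 4 libraries give their group but not the sample and were not used.

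No values per library were used, so no model was refitted. Implied standard errors assume a Wald test. In Aβ+DFMO 80.4% of 7316 low values were whole reads within 0.05, too few for a count test. A lowess trend (fraction 0.3; statsmodels 0.14.6) on transcript GC content was fitted over genes whose Aβ mean reached 200 and tested on simulated data; 99.0% of genes had a GC value. Levels per kilobase use the longest transcript that GENCODE vM21 marks as coding. Of each list, up to 4 genes of smallest p were eligible for naming, together with all members, every other gene raised in Aβ, the 5 nearest in pattern and 6 fixed paralogs; the other list members named for their role were chosen after their values were seen. The members and lists were chosen with earlier results of these data known. The authors' pathway table and the quartiles per library were not used.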

Additional observations from a re-analysis of the deposited data

How the results depend on the processing

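Since the genes were chosen for their rise in Aβ, the count of the 10 that were higher in Aβ was set by that choice. It was 10 as deposited, at an adjusted p under 0.01, with ratios centred on their median and with the GC trend taken out. It was 9 with a minimum mean of 200, under which Fabp4 is not tested. The count that fell in Aβ+DFMO was 8 under each of these settings, and 7 lay below Control with a pseudocount of 50, with centring and with the GC trend taken out. Under the last the 7 were not the same genes, since Mmp12 turned to −0.21 and Lgals3 to 0.21. Over single genes, the 20 log2 ratios of Aβ over Control and of Aβ+DFMO over Aβ kept their direction with the pseudocount and the GC trend taken out, and 19 did with centring. The exception was Atp6v0d2 in Aβ+DFMO against Aβ, which stood at 0.0010 after centring, against −0.02 as deposited, and passed in neither. Over all genes, calls in Aβ+DFMO against Aβ numbered 1724 as deposited (751 higher, 973 lower), 887 at an adjusted p under 0.01 and 293 (157 higher, 136 lower) with the GC trend taken out; the higher share was 43.6% as deposited and 53.6% without the trend. No paired analysis was possible because the table holds group means without values per library, and for the same reason no library could be left out. The 3 reads of Fabp4 and the 22.0 of Anpep in the Aβ+DFMO library limit both genes.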

Other observations

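The authors' deposited table held 11 other genes higher in Aβ at an adjusted p under 0.05. Of the myeloid genes among them, Adam8, a membrane protease, had a mean of 581 in Aβ+DFMO, 2070 in Aβ and 1547 in Control, and Lilr4b, a receptor of myeloid cells, 900 in Aβ+DFMO, 1179 in Aβ and 675 in Control. Adam8 fell by 1.83 on the log2 scale in Aβ+DFMO against Aβ in the authors' deposited table (DESeq2 adjusted p = 1.82e-15), and Lilr4b did not pass (−0.39, adjusted p = 0.247). Rgs1, a regulator of G protein signalling in leukocytes, had 89.4 in Aβ+DFMO, 186 in Aβ and 66.4 in Control, and Mfge8, a bridging protein for phagocytosis, 2444, 4173 and 3092 in the same order. The log2 ratio of Aβ+DFMO over Aβ was −0.77 for Mfge8 and −1.06 for Rgs1, the latter on 12.0 reads. With the GC trend taken out these were −0.35 and −1.46. Mamdc2 had 1610 in Aβ+DFMO, 1577 in Aβ and 1167 in Control, so that like Atp6v0d2 its Aβ+DFMO mean stayed near that of Aβ; Mamdc2 did not pass in Aβ+DFMO against Aβ (0.03, adjusted p = 0.960 in the authors' deposited DESeq2 table). The heat shock genes Hspa1a and Hspa1b had 334 and 262 in Aβ+DFMO, 513 and 506 in Aβ and 307 and 257 in Control. Npy had 119 in Aβ+DFMO, 222 in Aβ and 100 in Control. Of the predicted genes, Gm26917 had 9017 in Aβ+DFMO, 26632 in Aβ and 15337 in Control, and Gm42418 had 2989, 8345 and 5453 in the same order. Both fell in Aβ+DFMO against Aβ in the authors' deposited table (−1.56 and −1.48, DESeq2 adjusted p = 5.14e-35 and 8.49e-24) and passed with the GC trend taken out. Gm9299 had 36.6 in Aβ+DFMO, 42.0 in Aβ and 5.54 in Control and did not pass in Aβ+DFMO against Aβ.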
